A study of Mus musculus with 8 samples.

Results

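The genes described here are 35 cell cycle genes of dividing crypt cells, chosen by name as the rows of both deposited count tables whose gene symbol is on the list. They are 35 of the 40178 genes in either table. RNAseq was performed on intestinal epithelial cells (IECs) from the ileum and colon of 2 WTIEC mice, genotype DDX5(+/+), Vil1Cre(+), and 2 DDX5ΔIEC littermates, genotype DDX5(fl/fl), Vil1Cre(+), all at steady state and 8 weeks old. Both genotypes therefore carried the Cre transgene, which the Villin1 promoter drives in the epithelium of both organs. The cells were released with EDTA and were not sorted, so each library holds stem cells, dividing crypt cells and mature cells together, with any leukocytes that lie between them. Each mouse gave 1 library from either organ, so the 8 libraries stand for 4 mice, and the 2 libraries of a mouse are not independent.

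The 8 libraries held 11571061 to 22984283 counts, of which the 35 genes took 0.134% to 0.194%. Ddx5 itself was 700 and 700 CPM (counts scaled to a common library size, here with TMM, which evens out library composition) in WTIEC ileum replicates 1 and 2 and 340 and 326 CPM in DDX5ΔIEC ileum. In colon it was 771 and 706 against 367 and 355 CPM, a count over all exons, deleted or not. The epithelial genes Epcam, 1427 to 2797 CPM, and Krt8, 4525 to 6340 CPM, were abundant in every library. The crypt stem cell gene Lgr5 was 13.1 to 20.1 CPM in ileum and 4.93 to 9.30 CPM in colon. The counts of 3 repeat-like genes, Gm10800, Gm10801 and Gm21738, took 19.5% of DDX5ΔIEC ileum replicate 2 and at most 4.04% of any other library.

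The intestinal epithelium is renewed from the crypts, where stem cells and their transit-amplifying daughters divide before they mature and move to the villus or the colonic surface. A cell that commits to division loads the MCM2-7 helicase onto DNA, and cyclin E with its kinase starts replication, while E2F factors drive the genes for helicase subunits, nucleotide synthesis and the sliding clamp. Later the B-Myb and FOXM1 factors act with the MuvB complex at a promoter element called the cell cycle homology region (CHR) to drive the genes for mitotic cyclins, kinases and spindle proteins. Of the 35 genes, 13 act at the G1/S step or in S phase (S phase genes below), 19 act in G2 or mitosis (G2/M genes) and 3 encode transcription factors.

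The promoters, which the gene list did not use, were read for the letters of such elements. RefSeq promoter windows on GRCm38.p6, running from 250 bases before to 50 bases after the transcription start, were matched for 29 of the 35 genes. Foxm1, Ccna2, Mcm4, Aurkb, Ccne2 and Tpx2 were not matched. Each window was searched on both strands for the CHR letters TTTGAA, for CCAAT, the core of the NF-Y site, and for TTTCGCGC or TTTGGCGC, a strict form of the E2F site. TTTGAA stood in 12 of 16 G2/M windows (75.0%), in 1 of 11 S phase windows (9.09%, Mcm2) and in 18.1% of 27025 genes with a window. CCAAT stood in 15 of 16 G2/M windows and 9 of 11 S phase windows, against 37.9% of all genes. Strict E2F letters stood in 4 of 11 S phase windows (36.4%, all MCM genes), in 1 of 16 G2/M windows (6.25%, Cdk1) and in 0.833% of all genes. All 13 genes of the list with TTTGAA also had CCAAT, a combination found in 7.12% of all genes. The windows of E2f1 and Mybl2 held none of the 3. These are matches of letters, and no factor was measured at them.

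The CHR letters are shown for 8 G2/M genes described below because they are the feature these genes share. Each run is 26 bases, 5′ to 3′ on the gene's own strand, with TTTGAA, or its reverse complement TTCAAA, in capitals. Ccnb2, Cdk1, Mki67 and Top2a each hold another match in the window that is not shown. In Cdk1 the match not shown begins 15 bases before the start, nearer to it than the match shown.
Ccnb2, chr9:70421535-70421560, minus strand: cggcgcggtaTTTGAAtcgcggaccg
Cdk1, chr10:69352968-69352993, minus strand: gattggctccTTTGAAcgtctacgtg
Cdc20, chr4:118437346-118437371, minus strand: acagttgggtTTTGAAggagccaatg
Kif11, chr19:37376353-37376378, plus strand: gtctccatttTTCAAAattgaggcgc
Kif23, chr9:61946782-61946807, minus strand: gattggcctgTTTGAAatgcgccggg
Cenpf, chr1:189688069-189688094, minus strand: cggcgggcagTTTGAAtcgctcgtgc
Mki67, chr7:135716462-135716487, minus strand: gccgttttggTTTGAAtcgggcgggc
Top2a, chr11:99024197-99024222, minus strand: tagataaaggTTCAAAtgaaactagg

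Ccnb2 held 3 copies of CCAAT, which began 21, 54 and 87 bases before its start. They are shown, in capitals, because Ccnb2 is the gene of the list that differed most clearly between genotypes. Several copies are not particular to Ccnb2, since Top2a, Cdk1, Mki67, Mcm3 and Mcm5, among others of the list, also held several.
Ccnb2 first, chr9:70421560-70421585: gtgcgtctacCCAATagtgcgtcagc
Ccnb2 second, chr9:70421593-70421618: tccagtctagCCAATgggttgcgcgc
Ccnb2 last, chr9:70421626-70421651: tacaagccagCCAATcaacgtgcaga

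For Mcm5, Mcm6 and Mcm7 the strict E2F letters are in capitals, and Mcm3, which also holds them, is not shown. In Mcm5 a match on the other strand overlaps the match shown, in Mcm6 a second pair of matches lies further upstream, and in Mcm7 a CCAAT shares its first base with the last base of the match.
Mcm5, chr8:75109347-75109372, plus strand: gccaagaacTTTCGCGCcaaaacgtc
Mcm6, chr1:128359736-128359761, minus strand: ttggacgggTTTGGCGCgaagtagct
Mcm7, chr5:138171851-138171876, minus strand: gtgacgacgTTTCGCGCcaatttcgg

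All 35 genes were detected in every library and passed the filter on low counts in both tissues. Per kilobase of exon, the highest mean level in WTIEC ileum was that of Mki67, which encodes the Ki-67 protein that coats mitotic chromosomes, at 36.4 CPM per kilobase. It was followed by the replication clamp gene Pcna at 30.8, the topoisomerase gene Top2a at 30.6, the cyclin genes Ccna2 at 26.9 and Ccnb2 at 26.5, and Cdc20 at 25.7. In WTIEC colon the same 6 genes led, with Pcna first at 29.6 and Mki67 second at 26.2 CPM per kilobase. The lowest levels in both tissues were those of E2f1, 1.03 in ileum and 0.842 in colon, with Ccne1 and Mybl2 also at the bottom. E2f1 and Ccne1 rested on few reads, 39 to 77 raw counts for E2f1 and 55 to 170 for Ccne1. Levels are uncertain for Ccnb1, Mybl2, Pcna, Mcm7, Uhrf1 and Cdc20, of whose 50-base words 10.4% to 23.4% also occur in other genes, mostly pseudogenes. The exons of Mcm7, Ccne2, Ccna2 and Prc1 overlap another gene on the opposite strand over 11.1% to 17.4% of their length, and whether strand was used in counting is not given in the sources used here.

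The first comparison asked which of the 35 genes depended on DDX5, an RNA helicase, in the colonic epithelium. In DDX5ΔIEC colon, 0 of the 35 genes passed the study's criterion of an unadjusted p-value under 0.05 with a log2 fold change of at least 0.5, where 6.71% of 15362 genes did. No gene in the table passed an adjusted p-value of 0.05 (edgeR), and 12% of all genes had an unadjusted p-value under 0.05. DESeq2 with the same block called 68 genes lower and 49 higher at an adjusted p-value of 0.05, none of them among the 35, of which 1 had an unadjusted p-value under 0.05. Among the 35 genes 6 had such a p-value, all 6 G2/M genes at lower values, with adjusted p-values of 0.331 or more. Without the replicate block 3 of the 35 had such a p-value, and 2 genes of the table were lower and 3 higher at an adjusted p-value of 0.05. In bulk RNA, fewer cells of a type and less RNA per cell cannot be told apart.

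G2/M and MCM genes lay on opposite sides of 0 in the colon. All 19 G2/M genes had negative log2 fold changes, with a median of −0.24, whereas 50.1% of all genes were negative and their median was −0.00042. The 6 MCM genes were all positive, with a median of 0.17, which was 0.05 without WTIEC colon replicate 1 and 0.06 without DDX5ΔIEC colon replicate 2, with 2 of the 6 negative in either case. Without WTIEC colon replicate 2 it was 0.30 and without DDX5ΔIEC colon replicate 1 it was 0.31. Among the other S phase genes the values ran from −0.68 for Ccne1 to 0.11 for Uhrf1. These counts of signs carry no test, since genes of a library share its cells.

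**Figure D1:**
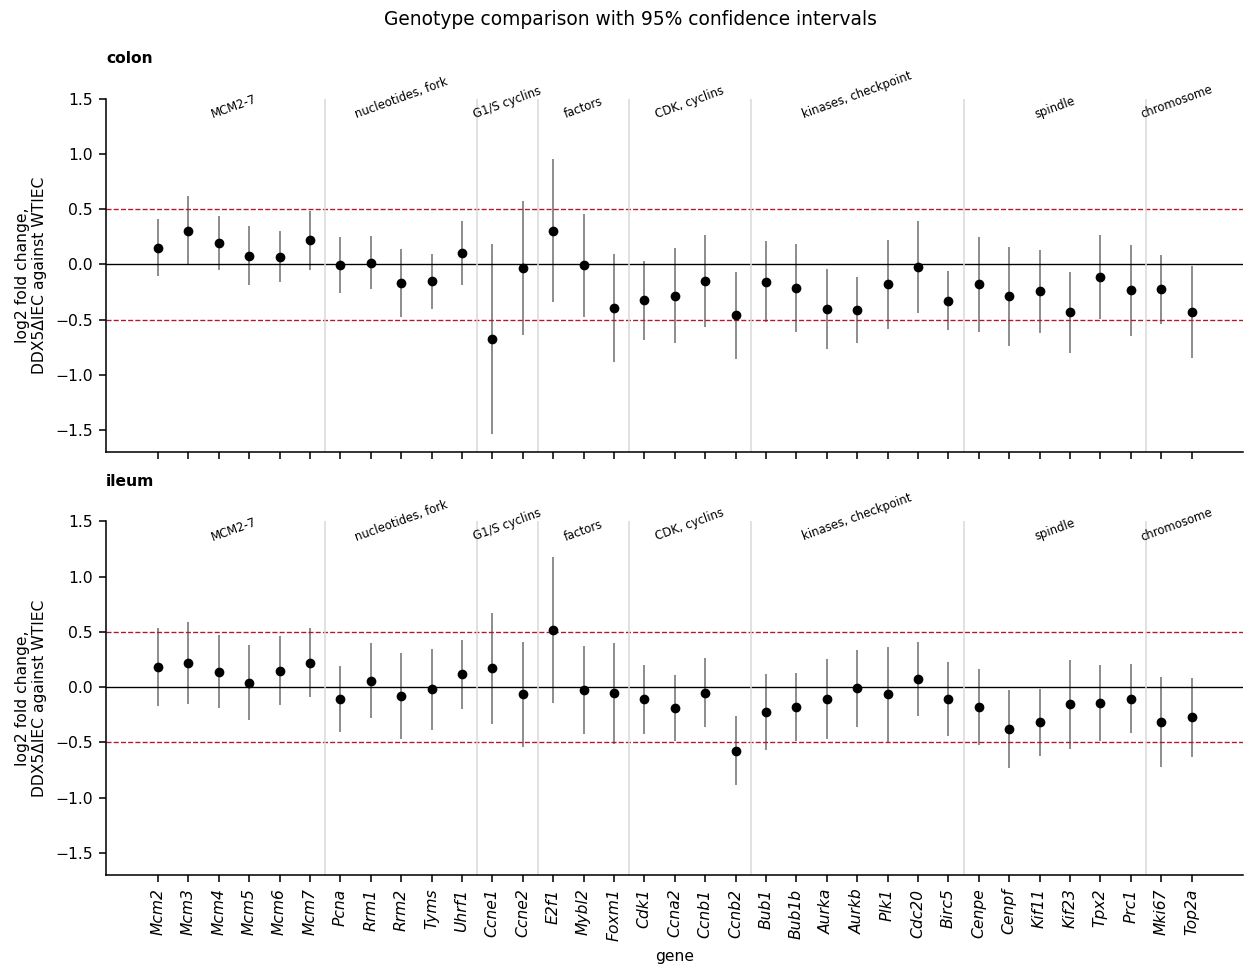
Log2 fold change of DDX5ΔIEC against WTIEC (y axis) for each of the 35 genes (x axis, grouped by role) in colon (top) and ileum (bottom). Points are edgeR estimates from 2 mice per genotype, bars are 95% confidence intervals and dashed lines mark the fold criterion of 0.5. Only Ccnb2 in ileum has an interval that excludes 0 together with a log2 fold change past 0.5, and the 6 MCM estimates lie above 0 in both tissues, which in the ileum holds for 3 of 6 when libraries are scaled by their totals alone.

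Ccnb2 encodes cyclin B2, a partner of the mitotic kinase CDK1, and lies at chr9:70407692-70421547 on GRCm38 (minus strand). In colon it was 34.9 and 29.6 CPM in WTIEC replicates 1 and 2 and 21.2 and 25.9 CPM in DDX5ΔIEC replicates 1 and 2. Both DDX5ΔIEC libraries were below both WTIEC libraries, and the log2 fold change was −0.46 (standard error 0.15, 95% confidence interval −0.85 to −0.07, adjusted p = 0.364, edgeR). Its relative Ccnb1, cyclin B1, was 36.3 and 34.4 against 26.8 and 38.0 CPM. The Ccnb1 libraries overlapped, with a log2 fold change of −0.15 and a 95% confidence interval from −0.57 to 0.26. Cdk1 itself was 37.6 and 40.4 CPM in WTIEC and 25.8 and 38.0 CPM in DDX5ΔIEC, low in a single library, and Ccna2, cyclin A2, had the same form at 87.3 and 89.3 against 57.8 and 92.1 CPM.

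Top2a, which untangles replicated chromosomes (chr11:98992943-99024189, minus strand), was 198 and 204 CPM in WTIEC colon and 119 and 189 CPM in DDX5ΔIEC colon. Its log2 fold change was −0.43 (standard error 0.16, 95% confidence interval −0.85 to −0.01, adjusted p = 0.406, same test). The DDX5ΔIEC libraries were lower, but replicate 2 was only slightly so. Mki67 was 251 and 276 CPM in WTIEC and 188 and 273 CPM in DDX5ΔIEC, with overlapping libraries and a log2 fold change of −0.22 (95% confidence interval −0.54 to 0.09).

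The mitotic kinases Aurka and Aurkb and Birc5, which encodes the survivin subunit of the Aurora B complex, had p-values of 0.036, 0.017 and 0.026 (edgeR's quasi-likelihood test, unadjusted). Aurkb was 21.5 and 23.2 CPM in WTIEC colon and 15.1 and 18.9 CPM in DDX5ΔIEC colon, a log2 fold change of −0.41 (adjusted p = 0.331 in the same test). Kif23, a motor of the central spindle, was 41.8 and 42.0 against 26.4 and 36.8 CPM (log2 fold change −0.43). In these 4 genes the DDX5ΔIEC libraries did not overlap the WTIEC libraries. The remaining checkpoint and spindle genes, Bub1, Bub1b, Plk1, Cdc20, Cenpe, Cenpf, Kif11, Tpx2 and Prc1, overlapped between genotypes and had log2 fold changes from −0.29 to −0.02.

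Among the S phase genes, Mcm6 was 61.1 and 74.7 CPM in WTIEC colon and 64.2 and 79.6 CPM in DDX5ΔIEC colon, and Mcm2 was 28.2 and 35.1 against 32.8 and 37.8 CPM. Mcm3 had the highest MCM estimate, 23.0 and 31.3 against 31.95 and 35.05 CPM (log2 fold change 0.31, standard error 0.12, adjusted p = 0.424, edgeR). Pcna differed by −0.01 on the log2 scale, with a 95% confidence interval from −0.26 to 0.25. For the clamp gene, changes past 0.26 in either direction therefore lie outside the interval. Rrm2, the regulated subunit of ribonucleotide reductase, was 14.3 and 21.7 CPM in WTIEC and 12.1 and 20.4 CPM in DDX5ΔIEC, a spread between mice of one genotype that exceeded the genotype difference.

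Ccne1, the cyclin E1 gene, had the most negative estimate in colon, −0.68, with a 95% confidence interval from −1.54 to 0.18. It was 3.83 and 7.48 CPM in WTIEC and 3.64 and 3.24 CPM in DDX5ΔIEC, so WTIEC replicate 2 alone was high. Fitted over all 8 libraries without the replicate block, Ccne1 passed the study's criterion, and it was the only one of the 35 genes that did. Foxm1, a driver of the mitotic genes, was 13.8 and 13.5 against 8.66 and 12.5 CPM (log2 fold change −0.40, standard error 0.19, adjusted p = 0.478, edgeR). E2f1 was 2.10 and 3.21 against 3.04 and 3.51 CPM (log2 fold change 0.30) and Mybl2, the B-Myb gene, differed by −0.01.

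In all, 8 of the 35 genes (Ccnb2, Top2a, Aurka, Aurkb, Birc5, Kif23, Ccne1 and Foxm1) were lower in both DDX5ΔIEC colon libraries than in both WTIEC libraries, where 20.7% of all genes were. Mcm3 and Mcm7 were higher in both, where 23.8% of all genes were. These shares are close to or under the background, so the lists of non-overlapping genes are a description of these 4 libraries.

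The same comparison in the ileum found 1 of the 35 genes, Ccnb2, lower at the study's criterion, where 7.35% of 14068 genes passed it with 3.48% lower and 3.87% higher. At an adjusted p-value of 0.05 none of the 35 genes passed, and 0.697% of all genes did (edgeR). Of all genes 45 were lower and 53 higher there, but 6 and 14 when the 3 repeat-like genes were left out. At an unadjusted p-value under 0.05 there were 3 of the 35, Ccnb2, Cenpf and Kif11, and 12.3% of all genes. Without the replicate block 1 of the 35, Ccnb2, had such a p-value, and 1 gene of the table in place of 98 passed an adjusted p-value of 0.05. DESeq2 with the replicate block also gave 0 of the 35 genes at an adjusted p-value of 0.05 and 1 at an unadjusted p-value under 0.05.

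Ccnb2 was 43.5 and 37.7 CPM in WTIEC ileum replicates 1 and 2 and 28.6 and 25.8 CPM in DDX5ΔIEC ileum replicates 1 and 2. No library of one genotype reached the range of the other, and the log2 fold change was −0.57 (standard error 0.14, 95% confidence interval −0.89 to −0.26, adjusted p = 0.119, edgeR). Both DDX5ΔIEC mice contributed, replicate 2 somewhat more than replicate 1. Ccnb1, in contrast, was 42.1 and 41.1 against 37.3 and 43.1 CPM, a log2 fold change of −0.05 with a 95% confidence interval from −0.36 to 0.26. Cdk1 was 37.0 and 39.3 against 32.7 and 37.9 CPM.

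Cenpf and Kif11, genes of the kinetochore and of the motor that separates the spindle poles, were low in a single DDX5ΔIEC library. Cenpf was 74.0 and 79.9 CPM in WTIEC and 46.1 and 75.2 CPM in DDX5ΔIEC ileum (log2 fold change −0.38, standard error 0.16, adjusted p = 0.371, same test). Kif11 was 76.3 and 93.4 against 56.8 and 80.6 CPM (log2 fold change −0.32). Mki67 had this form too, at 364 and 368 against 235 and 366 CPM (log2 fold change −0.32, 95% confidence interval −0.72 to 0.09). Top2a was 279 and 272 against 198 and 261 CPM, lower in both DDX5ΔIEC libraries (log2 fold change −0.27, standard error 0.16, adjusted p = 0.540, edgeR).

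Of the 19 G2/M genes 18 were negative in the ileum, with Cdc20 at 0.07 as the exception, and their median was −0.15, where 50.9% of all genes were negative. The 6 MCM genes were positive, from 0.04 for Mcm5 to 0.22 for Mcm7, but only 3 of the 6 were positive when libraries were scaled by their total counts alone, a scaling that moved the median of all genes from −0.0046 to −0.17. Their median of 0.17 was 0.03 without WTIEC ileum replicate 2, with 2 of the 6 negative, and 0.10 without DDX5ΔIEC ileum replicate 2, with 1 negative. It was 0.28 without WTIEC ileum replicate 1 and 0.24 without DDX5ΔIEC ileum replicate 1. Mcm6 was 78.8 and 68.1 CPM in WTIEC and 79.0 and 83.4 CPM in DDX5ΔIEC ileum. Mcm2 was 43.5 and 33.5 against 40.6 and 46.4 CPM, with overlapping libraries. Pcna, Rrm2, Tyms, Rrm1 and Uhrf1 lay between −0.11 and 0.12 on the log2 scale, none with an interval that excluded 0.

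Among the factors, E2f1 was 3.37 and 3.12 CPM in WTIEC ileum and 3.65 and 5.89 CPM in DDX5ΔIEC ileum (log2 fold change 0.51, standard error 0.30, adjusted p = 0.535, edgeR). Foxm1 was 19.3 and 18.8 against 13.5 and 24.6 CPM, the DDX5ΔIEC mice lying on either side of WTIEC. Ccne1 was 5.95 and 5.90 against 7.40 and 5.89 CPM, a log2 fold change of 0.17 with a 95% confidence interval from −0.33 to 0.67.

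Lower in both DDX5ΔIEC ileum libraries than in both WTIEC libraries were 5 of the 35 genes, Ccnb2, Top2a, Ccna2, Bub1b and Pcna, where 20.8% of all genes were. Higher in both were Mcm6, Mcm7 and E2f1, where 18.7% were. Ccnb2 and Top2a were lower without overlap in ileum and colon alike, and Mcm7 was higher in both, but the 2 tissues came from the same 4 mice. The share of all genes that did so in both tissues was not counted, so this only describes these libraries.

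**Figure D2:**
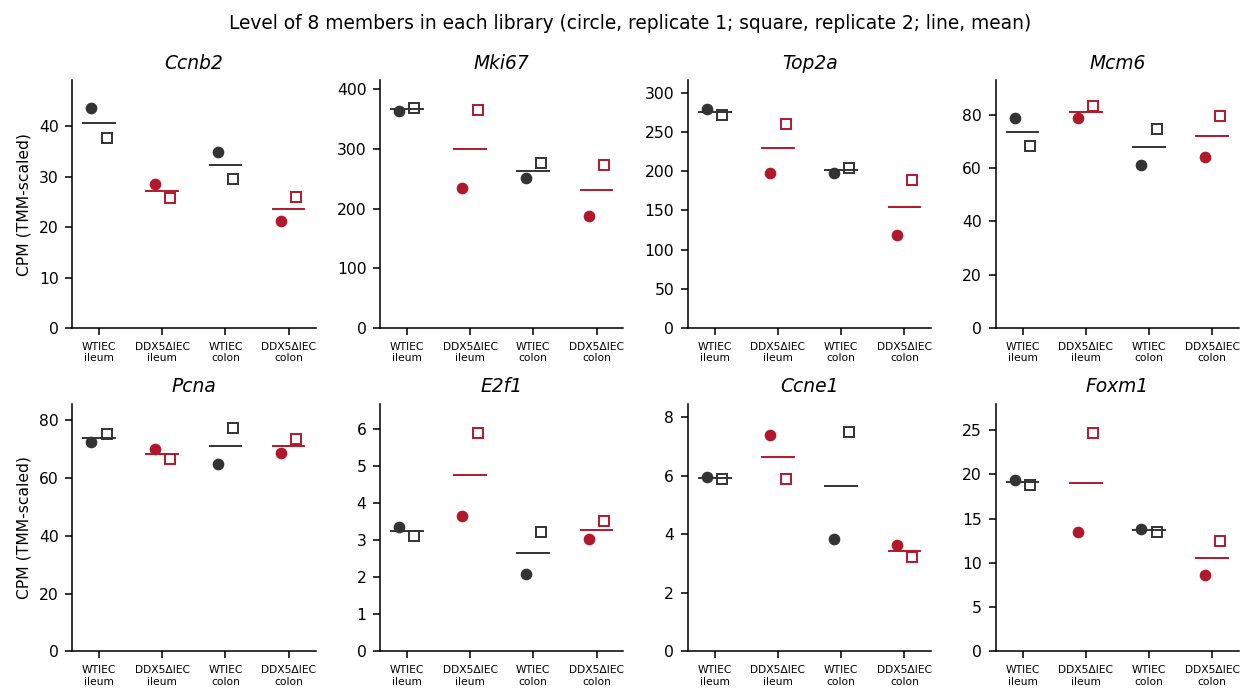
TMM-scaled CPM (y axis, from 0) of 8 genes in each of the 8 libraries, by genotype and tissue (x axis). Circles are replicate 1, squares replicate 2 and lines the mean of 2 mice. Ccnb2 lies below WTIEC in all 4 DDX5ΔIEC libraries, while Mki67 and Top2a are lowest in DDX5ΔIEC replicate 1 in each tissue.

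Reading the 2 DDX5ΔIEC mice apart showed that most of the G2/M difference came from 1 of them. In the colon, DDX5ΔIEC replicate 1 was below both WTIEC libraries for all 19 G2/M genes, with a median of −0.48 against the WTIEC mean on the log2 scale, where 38.5% of all genes were below. DDX5ΔIEC replicate 2 was below both for 6 of 19 and above both for 9, with a median of 0.04, where 35.6% and 39.2% of all genes were. In the ileum of the same mice, replicate 1 was below both for 18 of 19 G2/M genes with a median of −0.41, where 40.0% of all genes were. Replicate 2 was below both for 4 of 19 and above both for 10, with a median of 0.05, where 37.2% and 37.5% were.

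**Figure D3:**
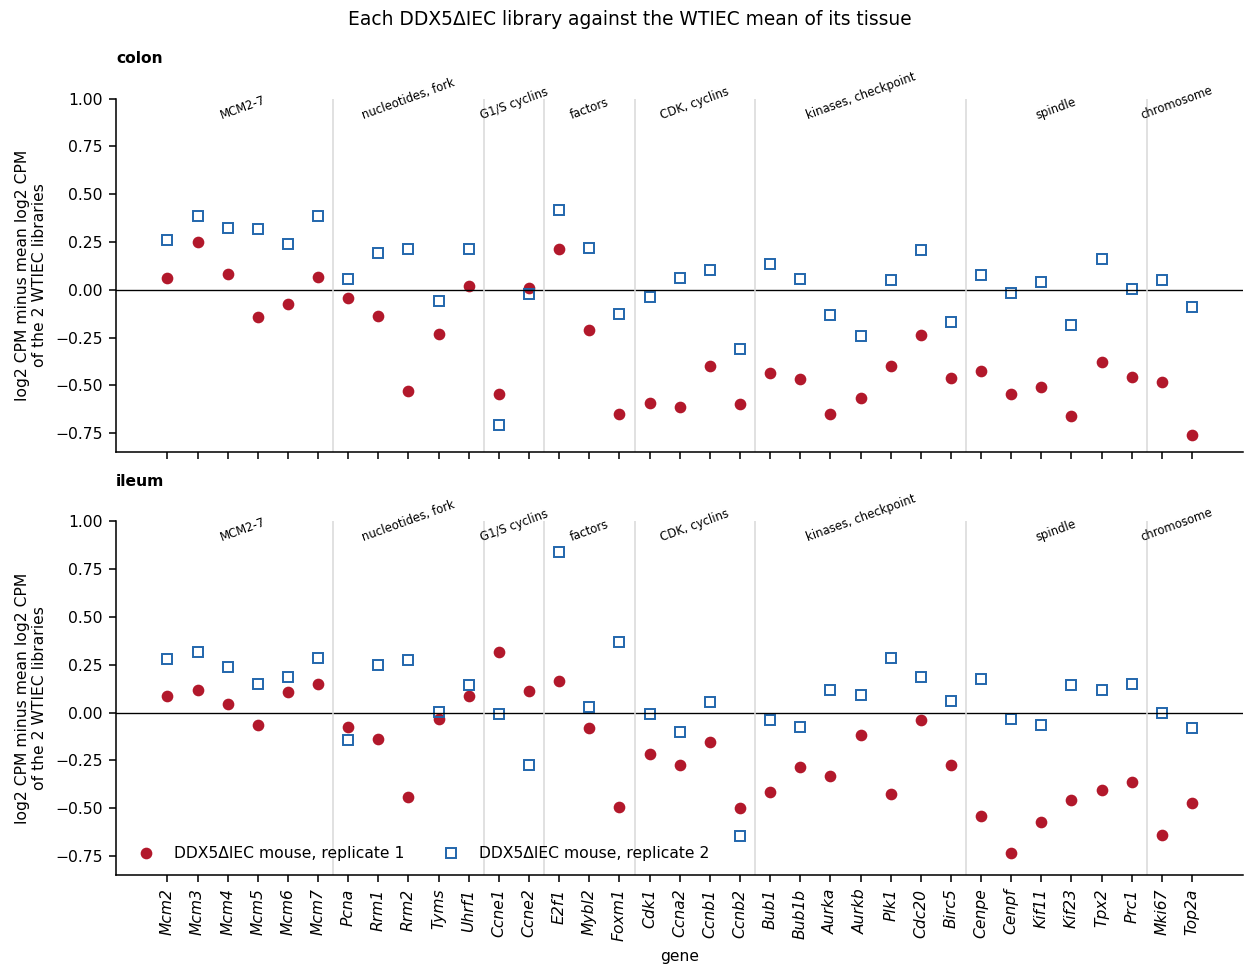
Log2 CPM of each DDX5ΔIEC library minus the mean log2 CPM of the 2 WTIEC libraries of its tissue (y axis) for the 35 genes (x axis, grouped by role), in colon (top) and ileum (bottom). Filled circles are DDX5ΔIEC replicate 1 and open squares replicate 2, each a mouse seen in both tissues. The circles lie below 0 for all 19 G2/M genes in both tissues, whereas the squares scatter about 0 there and lie above 0 for all 6 MCM genes.

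The 19 G2/M genes were all higher in DDX5ΔIEC replicate 2 than in replicate 1 in the colon, by a median of 0.52 on the log2 scale, and 18 of 19 were in the ileum, by 0.39. For all genes the share was 50.5% in colon and 51.9% in ileum. The 2 WTIEC mice differed by less, with signed medians of 0.03 for the G2/M genes in each tissue. Without regard to sign, their median difference was 0.11 in each tissue, against 0.52 (colon) and 0.39 (ileum) between the DDX5ΔIEC mice. Without DDX5ΔIEC colon replicate 1, 8 of 19 G2/M genes were negative in the genotype comparison. Without DDX5ΔIEC ileum replicate 1, 9 of 19 were negative. Conversely, without DDX5ΔIEC colon replicate 2 the median log2 fold change of the G2/M genes was −0.49, where that of all genes was 0.0034. Without DDX5ΔIEC ileum replicate 2 it was −0.39, where that of all genes was −0.0031. Top2a, Cdk1 and Cenpf were below the WTIEC mean in both mice and both tissues, though only at −0.09 to −0.01 in replicate 2. Ccnb2 was further below it in replicate 2. It lay below the WTIEC mean in both mice, by 0.60 and 0.31 in colon and by 0.50 and 0.65 in ileum on the log2 scale, and in the ileum it was called without replicate 1 but not without replicate 2 or without WTIEC replicate 1.

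The MCM genes stood higher in the other DDX5ΔIEC mouse. DDX5ΔIEC replicate 2 was above both WTIEC libraries for all 6 MCM genes in the colon, by a median of 0.32 on the log2 scale, and for all 6 in the ileum, by 0.26, where 39.2% and 37.5% of all genes were above both. In replicate 1, 2 of 6 were above both in each tissue, where 41.1% of all genes were in colon and 37.8% in ileum. WTIEC mice also differed in S phase genes, since all 13 were higher in WTIEC colon replicate 2 than in replicate 1, by a median of 0.29, where 48.5% of all genes were. In the ileum of the same mice 3 of 13 were higher in replicate 2, where 49.5% of all genes were.

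Summed over genes, the G2/M level was 1112 and 1137 CPM in WTIEC colon and 772 and 1125 CPM in DDX5ΔIEC colon, and it was 1438 and 1463 against 1055 and 1443 CPM in the ileum. The S phase sum was 426 and 528 against 459 and 549 CPM in colon, and 571 and 508 against 541 and 602 CPM in ileum. Only the G2/M sum of DDX5ΔIEC replicate 1 left the WTIEC range on the low side. The ratio of the G2/M sum to the S phase sum was 2.61 and 2.15 in WTIEC colon against 1.68 and 2.05 in DDX5ΔIEC colon, and 2.52 and 2.88 against 1.95 and 2.40 in ileum. In both tissues the genotypes did not overlap in this ratio, which does not depend on how libraries are scaled to each other. The gap was 2.15 against 2.05 in colon and 2.52 against 2.40 in ileum, in both tissues smaller than the difference between the WTIEC mice. With 2 against 2 mice an exact permutation test cannot give a two-sided p under 0.333, so none is given.

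**Figure D4:**
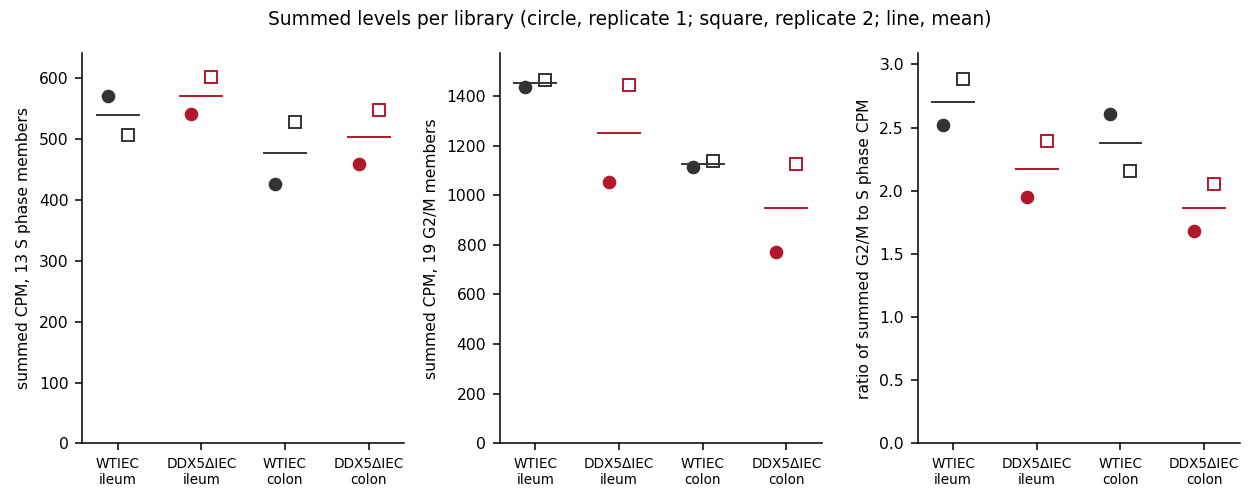
Summed TMM-scaled CPM of the 13 S phase genes (left) and 19 G2/M genes (middle) and the ratio of the G2/M sum to the S phase sum (right) in each library, by genotype and tissue (x axis), with y axes from 0. Circles are replicate 1, squares replicate 2 and lines the mean of 2 mice. The G2/M sum is low in DDX5ΔIEC replicate 1 in both tissues, and the ratio is below WTIEC in all 4 DDX5ΔIEC libraries.

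Markers of other cell states were read beside these sums. Genes of surface colonocytes summed to 2991 and 2930 CPM in WTIEC and 4148 and 3847 CPM in DDX5ΔIEC colon, with 5 of 8 higher at the study's criterion, where 3.04% of all genes were. Crypt stem cell markers summed to 191 and 198 against 207 and 205 CPM, with none of 8 called. Leukocyte markers summed to 34.0 and 26.9 against 7.23 and 16.2 CPM, all 7 tested were negative and 2 were lower at the criterion, where 3.67% of all genes were, and Cd4 and Cd79a were at 0 counts in both DDX5ΔIEC colon libraries. Of 5 stromal and endothelial markers tested in colon 1 was lower and 1 higher, and of 6 ileal villus markers 1 was lower and 1 higher. In the ileum, crypt stem cell markers summed to 995 and 945 CPM in WTIEC and 872 and 1116 CPM in DDX5ΔIEC. The replicate with the low G2/M sum was thus also the lower one here, with 4 of 8 markers negative and none called between genotypes. Villus enterocyte markers in ileum were 6226 and 6221 CPM in WTIEC and 7369 and 4580 in DDX5ΔIEC, so that the replicate with the low G2/M sum had the higher villus sum. Of these 8 markers 7 were positive, with a median log2 fold change of 0.24. At the criterion 2 were higher and 0 lower, where 3.87% and 3.48% of all genes were. Leukocyte markers in ileum summed to 63.2 and 76.5 against 62.4 and 54.4 CPM. Of the 7 tested there, 5 were positive with a median log2 fold change of 0.11, and 1, Lyz2 (2.18), was higher at the criterion and 0 lower. The part of these cells in the levels of the cell cycle genes was not tested.

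The interaction of tissue and genotype asked whether the genotype difference itself differed between ileum and colon. It called 0 of the 35 genes at an adjusted p-value of 0.05 (edgeR), where 0.0124% of 16178 genes were called, and 0 of 35 had an unadjusted p-value under 0.05, where 4.67% did. DESeq2 also called 0 of the 35. The most positive estimate was Ccne1 at 0.90, with a 95% confidence interval from −0.10 to 1.90. For Ccnb2 the interval ran from −0.61 to 0.35 and for Mki67 from −0.84 to 0.65, so differences between tissues of more than a log2 unit were outside the interval for these genes, and smaller ones were not resolved.

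A wider list of 98 cell cycle genes was read alongside. In the colon 4 of 97 tested were lower and 0 higher at the study's criterion, against 3.67% and 3.04% of all genes. They were Ccnd1, the cyclin D1 gene that Wnt signals drive, at 75.1 and 85.6 against 46.6 and 63.3 CPM, Tk1, thymidine kinase, at 20.5 and 23.6 against 11.0 and 18.0 CPM, Cenpa, the centromeric histone gene (log2 fold change −0.50), and Cdkn2d, a CDK4/6 inhibitor gene (−0.52). In the ileum 2 of 97 were lower and 0 higher, against 3.48% and 3.87% of all genes. These were Rbl1, which encodes the p107 pocket protein, at 54.5 and 52.0 against 32.9 and 39.3 CPM, and Ndc80, a kinetochore gene, at 14.8 and 13.3 against 7.59 and 11.9 CPM. The 6 adjusted p-values ran from 0.127 to 0.409 (edgeR).

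The DDX5ΔIEC mice were also read apart over the wider list. Of 47 further mitotic genes, 44 (colon) and 40 (ileum) were below both WTIEC libraries in replicate 1, with medians of −0.40 and −0.26 on the log2 scale, whereas 17 and 12 were in replicate 2, with medians of −0.00098 and 0.03. Of 34 further replication genes, 18 and 21 were below both in replicate 1 and 9 and 11 in replicate 2. Of all genes 38.5% (colon) and 40.0% (ileum) were below both in replicate 1, and 35.6% and 37.2% in replicate 2.

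The last comparison set ileum against colon within a genotype. In WTIEC mice 3 of the 35 genes were higher in ileum (Mcm4, Mybl2 and Birc5) and 1 was lower (Tyms) at an adjusted p-value under 0.05, where 17.4% of 16178 genes were higher and 16.8% lower. In DDX5ΔIEC mice 5 were higher (Mcm4, Ccne1, Foxm1, Aurkb and Birc5) and none lower, where 18.0% and 17.3% of all genes were. Since each mouse gave both tissues, the mouse can be used as a block, and then 11 were higher and 1 lower in WTIEC and 15 were higher and none lower in DDX5ΔIEC (backgrounds 19.5% and 18.3%, then 19.4% and 18.3%). The genes added included Mki67, Top2a, Rrm2, Cdc20, Cenpe and Kif11 in both genotypes. With libraries scaled by their totals alone, no gene of the 35 was higher, Tyms was lower in both genotypes and Pcna was lower in DDX5ΔIEC. These totals include the 3 repeat-like genes, which took 19.5% of DDX5ΔIEC ileum replicate 2. Single libraries also moved these calls in both genotypes, among the 35 genes and among all genes alike. The ranges with 1 library left out at a time are given at the end.

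The number of genes higher in ileum thus depended on scaling. With TMM, 33 of the 35 genes were higher in ileum in each genotype, with medians of 0.28 in WTIEC and 0.33 in DDX5ΔIEC on the log2 scale, where 51.3% and 52.4% of all genes were lower in ileum. With totals alone 25 were higher in WTIEC and 14 in DDX5ΔIEC, and the medians were 0.07 and −0.05, while the median of all genes moved from −0.02 to −0.23 in WTIEC and from −0.04 to −0.40 in DDX5ΔIEC. Relative to the median of all genes, the 35 genes stood 0.30 higher in ileum under both scalings in WTIEC, and 0.36 and 0.34 higher in DDX5ΔIEC. Subtracting that median removes a shift shared by all genes. The near agreement of the scalings was therefore built in and does not test which scaling holds.

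Birc5 was 33.5 and 33.4 CPM in WTIEC ileum and 22.5 and 25.9 CPM in WTIEC colon (log2 ratio 0.46, standard error 0.15, adjusted p = 0.047, edgeR), and 27.6 and 34.8 against 17.5 and 21.5 CPM in DDX5ΔIEC mice (0.68, adjusted p = 0.011). Mcm4, a helicase subunit gene, was 46.3 and 39.5 CPM in WTIEC ileum against 27.3 and 31.6 CPM in colon (0.54, adjusted p = 0.020, same test). The ileum and colon ranges of these genes did not overlap within a genotype. Tyms, thymidylate synthase, ran the other way, at 22.7 and 17.4 CPM in WTIEC ileum and 26.6 and 29.6 CPM in colon (−0.48, adjusted p = 0.037) and at 19.4 and 19.9 against 24.0 and 27.0 CPM in DDX5ΔIEC mice (−0.37, adjusted p = 0.093, edgeR).

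Mki67 was 364 and 368 CPM in WTIEC ileum and 251 and 276 CPM in WTIEC colon, with a log2 ratio of 0.48 (adjusted p = 0.150, and 0.013 with the mouse as a block, edgeR). In DDX5ΔIEC mice it was 235 and 366 CPM in ileum and 188 and 273 CPM in colon, so the mouse that was low in 1 tissue was low in the other. Top2a behaved alike, with log2 ratios of 0.46 and 0.58 (adjusted p = 0.138 and 0.069, and adjusted p = 0.019 and 0.006 with the mouse as a block, same test). Foxm1 had ratios of 0.48 and 0.84, and Mybl2 ratios of 0.68 and 0.65.

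Pcna stood at 72.4 and 75.3 CPM in WTIEC ileum and 64.7 and 77.3 CPM in WTIEC colon, a log2 ratio of 0.06 with a 95% confidence interval from −0.21 to 0.32. Cdk1 was at −0.03 in WTIEC and 0.14 in DDX5ΔIEC. Ccne1 had ratios of 0.06 in WTIEC and 0.95 in DDX5ΔIEC, the difference between them being the interaction given above.

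**Figure D5:**
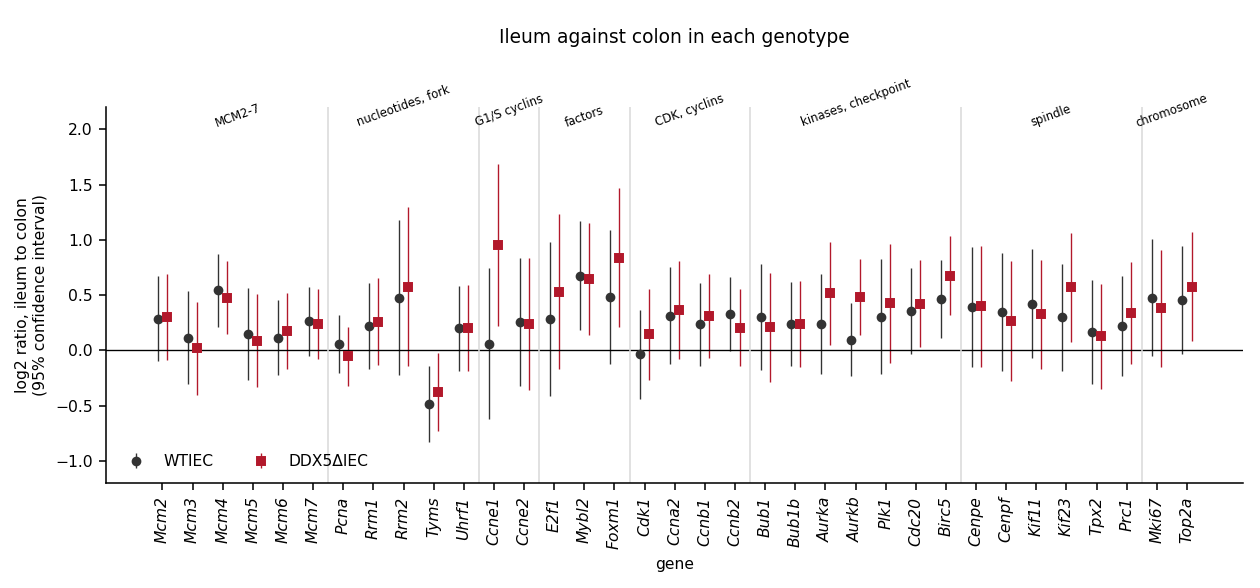
Log2 ratio of ileum to colon (y axis) for the 35 genes (x axis, grouped by role) in WTIEC (circles) and DDX5ΔIEC (squares) mice, 2 per genotype, with 95% confidence intervals from the fit over 8 libraries. With TMM scaling 33 of 35 estimates lie above 0 in each genotype, with Tyms the clearest exception, and with totals alone 25 and 14 do.

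The stem cell markers themselves differed between tissues. Stem cell markers summed to 995 and 945 CPM in WTIEC ileum and 191 and 198 CPM in colon, a gap carried largely by Olfm4, which was 674 and 681 CPM in ileum and 0.525 and 0.484 CPM in colon. The sum over the 35 genes divided by that of the markers was 2.05 and 2.12 in WTIEC ileum, 8.16 and 8.53 in WTIEC colon, 1.86 and 1.87 in DDX5ΔIEC ileum and 6.02 and 8.28 in DDX5ΔIEC colon.

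Of 10 genes of CDK inhibitors and pocket proteins, 4 were higher in ileum and 1 was lower in each genotype at an adjusted p-value under 0.05 (edgeR). Cdkn2b, encoding the p15 inhibitor of CDK4/6, was 137 and 134 CPM in WTIEC ileum and 50.5 and 36.9 CPM in colon (log2 ratio 1.63), and 142 and 123 against 40.7 and 38.7 CPM in DDX5ΔIEC mice (1.74). Rb1, the retinoblastoma gene, was higher in ileum by 0.85 and 0.79 on the log2 scale. Cdkn1a, the p21 gene, was higher by 0.72 in WTIEC and 0.65 in DDX5ΔIEC. Cdkn2a was at 0 counts in all 4 colon libraries and at 22, 9, 2 and 2 counts in the ileum libraries. In DDX5ΔIEC mice Ccnd1 (1.38) and the DNA ligase gene Lig1 (0.78) were higher in ileum. Cdkn1b, the p27 gene, was lower by log2 ratios of −0.39 in WTIEC and −0.69 in DDX5ΔIEC. Each of these passed an adjusted p-value of 0.05 in edgeR's quasi-likelihood test, and of the wider list 12 of 98 were higher and 4 lower in WTIEC, and 17 and 4 in DDX5ΔIEC. Of all genes 17.4% were higher and 16.8% lower in WTIEC, and 18.0% and 17.3% in DDX5ΔIEC.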

How the data were processed

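Groups were taken from the sample labels. That colon and ileum libraries of a genotype with the same number come from 1 mouse was read from the study's supplementary values, whose columns name the mouse and equal the deposited normalized columns for the genes listed there. According to the study's methods and the labels, the authors made ribodepleted stranded libraries, aligned paired reads to mm10 with STAR 2.6.1a and counted uniquely mapped reads over exons with featureCounts. The deposited tables hold these raw counts per gene. The authors' normalized columns and their own comparison (DESeq2 1.18.1) were not used. Genes were filtered with filterByExpr (minimum count 10) and compared by the quasi-likelihood test of edgeR 4.0.16 (R 4.3.3, TMM), within a tissue with the replicate number as block, or over 8 libraries with 4 group means. Standard errors were derived from the fold change and F value. Alternatives used DESeq2 1.42.0. P-values were adjusted by Benjamini-Hochberg over all genes tested. The scripts were tested on simulated data. The 35 genes, lists and named genes (those called, at most 12 per comparison, 12 fixed genes and up to 5 of other lists) were chosen with earlier results of these data known. Identifiers matched GENCODE vM21 for 34 genes in version and for Kif11 without it. Promoters came from RefSeq, taking the window listed first. With 2 mice per group, p-values rest on a small spread estimate, and precision follows the counts given.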

Additional observations from a re-analysis of the deposited data

How the results depend on the processing

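Under the alternatives tried no gene of the 35 called in the main fit of a comparison, the edgeR fit given first, reversed its direction. Genes called only under an alternative could do so. Mki67 and Kif11, called higher in ileum in DDX5ΔIEC mice with the mouse as a block, were at −0.0036 and −0.055 with totals alone. Genes called lower in colon (564) numbered 310 with DESeq2 and the replicate block, and those called higher (467) numbered 198 with it and 309 with DESeq2 without the block. In the ileum genes called lower (489) numbered 183 and 234 in these 2 DESeq2 fits and 790 with no filter on low counts, and those called higher (545) numbered 231 and 305. Without the replicate block edgeR called the same numbers of the 35 genes, 0 in colon and 1 in ileum, but those of the 35 at an unadjusted p-value under 0.05 went from 6 to 3 and from 3 to 1, and all genes at an adjusted p-value under 0.05 from 0 to 2 lower and 3 higher in colon and from 98 to 1 in ileum. Same-numbered libraries of the 2 genotypes correlated at -0.0004 in colon and 0.125 in ileum over 16178 genes, so the numbers are not shown to pair the mice, while libraries of the same mouse in the 2 tissues correlated at 0.140 and 0.142. In the fit over 8 libraries without block, 1 of the 35 was lower in colon. In WTIEC mice the genes higher in ileum numbered 3, and 11 with the mouse as replicate block, and the 1 lower was 0 with DESeq2. In DDX5ΔIEC mice 5 became 15 with that block and 8 with DESeq2, and with no filter 4 S phase genes were negative in place of 2. For the interaction, genes called lower (0) numbered 58 with no filter and 2 with DESeq2, and those called higher (2) numbered 152, 15 and, with the mouse as replicate block, 1. The cause was not tested.

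Scaling by totals alone was chosen after the data were seen. It gave 2 of the 35 lower and 1257 genes lower in the ileum genotype comparison, 0 of the 35 higher in ileum in either genotype, 2 lower in DDX5ΔIEC, 1872 and 1677 genes higher in ileum, 5882 lower in DDX5ΔIEC and 1 gene for the interaction. Negative values then numbered 9 of 13 S phase genes in the ileum genotype comparison, 3 G2/M and 7 S phase genes between tissues in WTIEC, 11 and 10 in DDX5ΔIEC, and 14 and 12 for the interaction. The ratio of ileum to colon in the summed level of the 35 genes was 1.25 in WTIEC and 1.08 without TMM. With TMM it was 1.24 when the 3 repeat-like genes were left out of the scaling. In DDX5ΔIEC the same values were 1.26, 0.97 and 1.26.

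Leaving out 1 library at a time, in the fit over 8 libraries where the lone library of a group is assumed to vary like the others, gave these ranges. In the colon genotype comparison genes lower numbered 337 to 1088 and higher 311 to 706, of the 35 genes 0 to 8 were lower and 0 to 1 higher, and 8 to 19 G2/M and 2 to 9 S phase genes were negative. In the ileum they were 335 to 838, 458 to 804, 0 to 4, 0 to 1, 9 to 19 and 3 to 5. Between tissues in WTIEC they were 1561 to 3012, 1592 to 3243, 0 to 1, 0 to 4, 0 to 1 and 1 to 7, and in DDX5ΔIEC 2090 to 2537, 2069 to 2757, 0, 0 to 12, 0 to 4 and 2 to 4. For the interaction they were 0 to 2, 0 to 28, 0, 0, 0 to 15 and 0 to 11. With 2 mice per group, 1 mouse sets most values, and genes with under 100 counts, such as E2f1, could show only large differences.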
